A study of Mus musculus with 8 samples.

Results

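Ribosome footprints of Mettl3KO mature dendritic cells (maDCs) were set against those of Mettl3WT maDCs in 4 of the 8 libraries of the series, 2 per genotype. The KO and WT columns of ribosome-protected fragments (RPF) were compared within each of 2 tables of RPKM values (reads corrected for the length of the gene and the size of the library), 1 table for each replicate. The table of replicate 1 named 20578 genes and that of replicate 2 named 11782, and the 11743 genes found in both were compared. The KO libraries carry the genotype label Mettl3-/- and the WT libraries that of wild type, both on the C57BL/6 strain. For both genotypes bone marrow came from mice 6 weeks old, was grown with GM-CSF and IL-4, was selected on CD11c beads and was exposed to LPS at 100 ng/ml for 24 h, so no unstimulated cells stand beside these libraries. The KO mice carry floxed Mettl3 and a Cre driven by the CD11c promoter, which removes exons 2 to 4, and the WT mice carry the floxed gene without Cre. Deletion therefore rests on the activity of that promoter in the culture. The paper states that cells for ribosome profiling came from 6 pairs of WT and littermate KO mice. How these pairs were divided over the 2 replicates is not given, and the labels do not say. The 2 KO libraries differ in Y-linked genes, as given below, and whether they share mice was not tested. The p-values stand for the spread among these 4 libraries alone, and part of that spread can be technical.

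Mettl3 is the catalytic subunit of the complex that writes N6-methyladenosine (m6A) into mRNA, and m6A is read by YTH proteins that act on the decay and translation of the marked mRNA. Ribosome profiling freezes ribosomes on mRNA, digests the RNA that they do not cover and sequences what is left. The number of footprints on a gene follows both how much of its mRNA is present and how many ribosomes each mRNA carries, and footprints alone cannot separate these. LPS acts through the receptor TLR4 and its adaptors, and induces cytokines, chemokines and, through type I interferon, the antiviral genes. Bone marrow cultures grown with GM-CSF are known to hold macrophage-like cells and granulocytes beside dendritic cells. In bulk libraries fewer cells of a type and fewer footprints per cell cannot be told apart.

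A ribosome selects its start codon by the bases around it, with a purine 3 bases before the ATG and a G just after it as the best known features. The sequences below are those of genes that stood furthest from 0 the same way in both replicates, and of Mettl3 itself. Each runs 5′ to 3′ and gives 9 bases before the start codon and 8 after it, with the start codon in capitals. Sequences and positions are those of the GENCODE M21 annotation of GRCm38 (mm10). Where a gene has several coding transcripts, the one with the longest coding sequence was taken. The start shown can therefore be that of a longer isoform rather than of the main protein. This applies to Lck, shown on a coding sequence of 1563 bases. Il6, Cxcl10, Fn1 and Ifit2 were lower in KO, and Lck, Rnf157, Hcst and Tmem167 higher.
Il6, + strand, start codon at chr5:30013192-30013194: gaaaccgctATGaagttcct
Cxcl10, - strand, start codon at chr5:92348812-92348814: atcagcaccATGaacccaag
Fn1, - strand, start codon at chr1:71652980-71652982: ccactcaagATGctcagggg
Ifit2, + strand, start codon at chr19:34570366-34570368: acagcagtcATGagtacaac
Lck, - strand, start codon at chr4:129558313-129558315: ctgcggccaATGggggcctc
Rnf157, - strand, start codon at chr11:116412782-116412784: gcagcggccATGggggccct
Hcst, - strand, start codon at chr7:30419744-30419746: cagcccagcATGgacccccc
Tmem167, + strand, start codon at chr13:90089781-90089783: ggcctcactATGtctgccat
Mettl3, - strand, start codon at chr14:52304985-52304987: ggagctaggATGtcggacac

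A purine stood 3 bases before the start codon in 86.4% of the 9684 tested genes whose annotated start could be read. The share was 91.5% (54 of 59) among genes at least 2-fold lower in KO in both replicates and 82.5% (66 of 80) among those at least 2-fold higher. G followed the ATG in 54.2% of the lower genes, 60.0% of the higher genes and 53.7% of all tested genes. These shares are descriptions of a small number of genes and carry no test.

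Mettl3 was examined before other genes, as a check of the labels. Its footprints were at 15.3 RPKM in KO and 34.0 RPKM in WT in replicate 1, and at 5.88 RPKM in KO and 9.63 RPKM in WT in replicate 2, where these values stand for 54 and 81 reads. Mettl3 was thus lower in the KO library of both pairs, without being absent from either, and exons outside the deleted stretch can still give footprints. After each library was centred on its median, the log2 ratio of KO to WT (log2 KO/WT) came to -0.67 in replicate 1 and to -0.65 in replicate 2, with an exact 95% counting interval from -1.22 to -0.18 in replicate 2. The fitted value was -0.66 ± 0.51 (SE, n = 2 per group), which did not pass (limma, adjusted p = 0.995).

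The RPKM values of replicate 2 rest on totals of 5276406 reads in the KO library and 4835140 in the WT library, and the median gene held 71 and 64 reads. The depth of replicate 1 is unknown. Within a replicate the KO and WT libraries were more alike than were libraries of 1 genotype across replicates. Over 9753 genes on a coding length, log2 levels correlated (Pearson) at 0.88 between KO and WT in replicate 1 and at 0.95 in replicate 2, against 0.69 between the KO libraries and 0.72 between the WT libraries. Genes are not independent replicates, and each replicate has a table of its own. As deposited, the median gene was 0.45 lower on the log2 scale in KO than in WT in replicate 1 and 0.01 lower in replicate 2, and all changes below are relative to these medians unless said otherwise.

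Genes of the Y chromosome set the replicates apart. In replicate 2 the 4 Y-linked genes found in both tables summed to 32 reads in KO and 258 in WT. Ddx3y, an RNA helicase, had 27 reads in KO and 142 in WT, and Uty, a histone demethylase family member, had 1 read in KO and 48 in WT. In replicate 1 Ddx3y was at 120.0 RPKM in KO and 87.0 RPKM in WT, and Uty at 31.8 RPKM in KO and 19.3 RPKM in WT. The labels give no sex of the mice. In replicate 2 Ddx3y was at 2.59 RPKM in KO and 14.9 RPKM in WT, and Uty at 0.052 RPKM in KO and 2.73 RPKM in WT. The KO library of replicate 2 thus stood far below the other 3 libraries in these genes. The WT library of replicate 2 also stood below both libraries of replicate 1. The part that the Y-linked difference has in the other differences of replicate 2 was not tested.

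The libraries held footprints of dendritic cells and of other myeloid cells. Fscn1, Ccr7 and Cd74, which mark mature dendritic cells or serve their antigen presentation, were present in every library, and 14 of 16 markers of dendritic cells were in both tables. Summed over the markers on a coding length, dendritic cell markers reached 14885 and 15687 RPKM in KO, against 12036 and 21424 RPKM in WT. Macrophage markers (17 of 19 in both tables) summed to 38377 and 15850 RPKM in KO and to 45685 and 12669 RPKM in WT. Neutrophil markers (18 of 19) summed to 14590 and 35044 RPKM in KO and to 20488 and 27912 RPKM in WT. Lyz2, the lysozyme of macrophages and neutrophils, and S100a9, a calcium-binding protein of granulocytes, were among the 6 genes with the highest level in replicate 2, next to Tmsb4x, B2m, Saa3 and Actb. The change of Lyz2, given from here on as replicate 1 and then replicate 2, was 0.29 and 0.37, and that of S100a9 0.32 and 0.47. None of the 12 erythroid markers was in both tables, and 4 of 10 B cell markers were, at a sum of 15 reads in KO and 13 in WT in replicate 2.

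No gene passed the test of KO against WT footprints. The test covered the 10098 genes (86.0% of 11743) with a mean over KO and WT of at least 1 RPKM in each table. A low gene can pass this filter through 1 genotype alone. Limma called 0 genes higher and 0 lower at an adjusted p of 0.05 (0% in each direction), with a smallest adjusted p of 0.995. At an unadjusted p under 0.05 stood 431 genes, 253 higher and 178 lower, which is 4.27% of those tested. Without centring, as the values were deposited, 11 genes were called higher (0.109%) and 19 lower (0.188%), and there limma set an SE from the spread pooled over genes of like level rather than from each gene's own replicates. Every gene named below therefore stands as a measured value and not as a call over all genes, except where the fit as deposited is named.

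The changes of the 2 replicates did not run together across genes. The centred log2 KO/WT of replicate 1 and of replicate 2 correlated at 0.00 (Pearson) and -0.01 (Spearman) over 10098 genes, and 49.1% of genes had the same sign in both. Higher in KO in both replicates were 23.9% of genes and lower in both 25.2%. At least 2-fold higher in both were 85 genes (0.842%) and at least 2-fold lower in both 67 (0.663%), a total of 152, while 155 genes (1.53%) differed by at least 2-fold in opposite directions. The same was counted among genes with many reads. Among 6565 genes with at least 100 reads in replicate 2 the correlation was 0.00, with 28 genes 2-fold higher, 35 lower and 71 opposite, and among 1320 genes with at least 1000 reads it was -0.03.

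**Figure D1:**
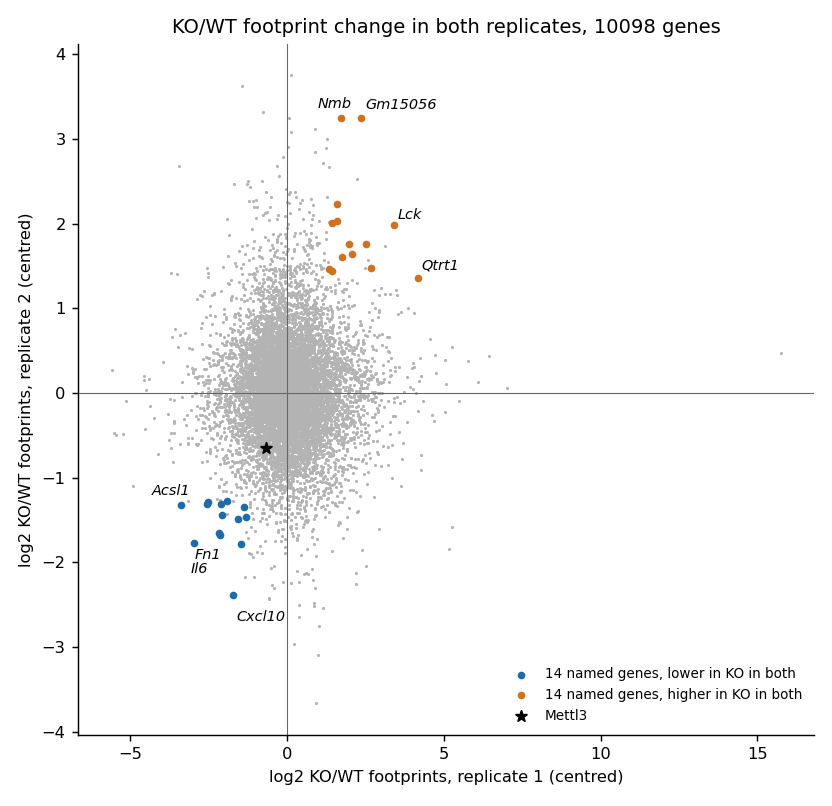
Centred log2 KO/WT of footprints in replicate 1 (x axis) and replicate 2 (y axis), 1 grey point per tested gene (10098), with the 14 named genes lower in KO in both replicates in blue, the 14 higher in orange and Mettl3 as a star. The cloud is wider along replicate 1 (SD 1.08) than along replicate 2 (SD 0.62) and has no slope, and the point far to the right is Lars2, which is listed at 0 in WT of replicate 1.

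The size of the changes differed between replicates. Their SD across genes was 1.08 in replicate 1 and 0.62 in replicate 2, and 28.4% of genes differed by at least 2-fold in replicate 1 against 9.94% in replicate 2. In replicate 1, 141 genes differed by at least 8-fold, of which 85 had the same sign in replicate 2 and 10 were also 2-fold apart there the same way. In replicate 2, 11 genes differed by at least 8-fold. Recovered reads allowed a counting interval for 9987 genes in replicate 2, and 42.3% of these excluded 0, with 2047 above (20.3% of all tested genes) and 2179 below (21.6%). Of these 4226 genes, 49.2% had the same sign in replicate 1. The interval covers counting error between 2 libraries only, and no like interval could be had for replicate 1.

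The 14 genes furthest below 0 in both replicates, ranked by the smaller of their 2 changes, included genes that LPS is known to induce. This choice used the values themselves, so they are given as a description. Il6, an inflammatory cytokine, was at 2.39 RPKM in KO and 30.1 RPKM in WT in replicate 1, and at 32.0 RPKM in KO and 112 RPKM in WT in replicate 2. Both KO libraries lay far below their WT partner, although the WT level of Il6 itself differed between the tables. Its change was -2.95 and -1.77 (interval -2.12 to -1.47 on 107 and 342 reads), with a fitted -2.36 ± 0.53 (SE, n = 2 per group, limma, adjusted p = 0.995). As deposited it was called (adjusted p = 0.0179). Cxcl10, a chemokine that draws T cells, was at 24.0 RPKM in KO and 109 RPKM in WT in replicate 1 and at 155 RPKM in KO and 820 RPKM in WT in replicate 2. Its change was -1.70 and -2.39 with a fitted -2.05 ± 0.49, and it was called as deposited (adjusted p = 0.0495). Both fitted values moved when a library was left out, which could only be fitted without the replicate block. For Il6 the value was -0.41 without KO replicate 1, -4.31 without KO replicate 2, -3.73 without WT replicate 1 and -0.998 without WT replicate 2. For Cxcl10 these values were -0.51, -3.58, -3.92 and -0.17 in the same order. Leaving out a library sets a level of 1 table against that of the other. These values therefore cannot tell whether the KO/WT change within a replicate rests on 1 library. Ifit2, an interferon-induced antiviral protein, was the gene whose 2 replicates differed least among the 14, with -1.37 in replicate 1 and -1.34 in replicate 2 (interval -1.42 to -1.27). It was at 206 and 258 RPKM in the KO libraries, against 726 and 663 RPKM in the WT libraries.

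Genes of metabolism, adhesion and signalling stood beside these. Acsl1, which activates long-chain fatty acids, was at 94.7 and 204 RPKM in KO, against 1336 and 513 RPKM in WT. Its change was -3.36 in replicate 1 and -1.32 in replicate 2, the widest gap between the replicates among the 14, and it was called as deposited (adjusted p = 0.0148). Fn1, fibronectin of the extracellular matrix, was at 6.60 and 7.43 RPKM in KO, against 43.3 and 24.7 RPKM in WT (-2.17 and -1.66). Slamf8, a receptor of the SLAM family on myeloid cells, was at 5.35 and 2.95 RPKM in KO, against 34.6 and 10.7 RPKM in WT, the values of replicate 2 resting on 13 and 43 reads. AA467197 was at 375 and 276 RPKM in KO, against 2220 and 691 RPKM in WT (-2.11 and -1.31). In these 4 genes the rule of choice set each KO library below its WT partner, and the counting interval of replicate 2 lay below 0. Ppp4r2, a regulatory subunit of protein phosphatase 4 (-1.55 and -1.49), Ptms, parathymosin (-1.46 and -1.78), Tlnrd1 (-2.06 and -1.45), Cacng8 (-2.55 and -1.31), Ppm1n (-1.31 and -1.46), Vamp4, a SNARE protein of vesicle fusion (-2.52 and -1.29), and Fam241a (-1.90 and -1.28) completed the 14, and Ppm1n had the fewest reads in replicate 2 (7 in KO and 23 in WT). Tlnrd1 (0.532 RPKM) and Cacng8 (0.912 RPKM) were below 1 RPKM in KO of replicate 1 and passed the filter there only through WT. Fam241a at -1.28 was the last inside, and Eif5, an initiation factor, at -1.28 the next outside (-1.2805 and -1.2770 with more digits).

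The 14 genes furthest above 0 in both replicates, chosen likewise, held 20 to 462 reads in replicate 2. Lck, Nmb, Ankrd55 and Qtrt1 were below 1 RPKM in WT of replicate 2, and C5ar2 in WT of replicate 1. In that replicate they passed the filter only through KO, so the choice of these 14 is tilted by the filter. Gm15056, a predicted gene, was at 76.4 RPKM in KO and 20.1 RPKM in WT in replicate 1, and at 78.3 RPKM in KO and 7.83 RPKM in WT in replicate 2. Its change was 2.35 and 3.25, with a fitted 2.80 ± 0.51 (SE, n = 2 per group, limma, adjusted p = 0.995), and as deposited it was called (adjusted p = 0.0179). Both KO libraries of Gm15056 were at a like level, and the WT libraries lay far below on 10 reads in replicate 2. Lck, which phosphorylates the T cell receptor, was at 49.6 and 4.10 RPKM in KO, against 5.93 and 0.677 RPKM in WT, with 33 and 5 reads in replicate 2. Hcst, which encodes DAP10, an adaptor of activating NK cell receptors, was at 71.0 and 88.8 RPKM in KO, against 16.5 and 26.2 RPKM in WT (2.52 and 1.76). These genes of lymphocyte signalling were higher in KO in both pairs by the rule of choice, and markers of T and NK cells are described with the gene lists.

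Rnf157, a RING ubiquitin ligase, was at 49.8 and 23.9 RPKM in KO, against 16.7 and 6.78 RPKM in WT, a change of 2.00 and 1.76 with an interval of 1.44 to 2.24 in replicate 2. Tmem167, a small membrane protein of the secretory pathway, was at 58.4 and 330 RPKM in KO, against 29.3 and 82.3 RPKM in WT (1.44 and 2.01). With 376 reads in KO and 86 in WT, Tmem167 had the most reads of the 14. Apol7e, of the apolipoprotein L family, was at 269 and 35.3 RPKM in KO, against 57.2 and 12.5 RPKM in WT. Qtrt1, the catalytic subunit of a tRNA-guanine transglycosylase, was at 282 and 2.51 RPKM in KO, against 20.8 and 0.684 RPKM in WT, so that the levels of replicate 1 and 2 differed far more than the genotypes, and replicate 2 held 16 and 4 reads. It was called as deposited (adjusted p = 0.0311), and its fitted 2.77 was -0.30 without KO replicate 1, 5.84 without KO replicate 2, 4.43 without WT replicate 1 and 1.11 without WT replicate 2. Also among the 14 were C5ar2, a receptor of the complement fragment C5a (1.61 and 2.04), Ceacam10 (1.75 and 1.61), H4c18, which encodes histone H4 (1.43 and 1.44), Mtfr1l, a mitochondrial fission regulator (1.33 and 1.46), Zbed3 (2.08 and 1.64), Nmb, neuromedin B (1.74 and 3.25, on 19 reads in KO and 1 in WT), and Ankrd55 (1.60 and 2.23). Histone H4 genes share near-identical coding sequence, so reads may have been split between copies. Mtfr1l at 1.33 was the last inside and Cdca8 at 1.33 the next outside (1.3332 and 1.3317 with more digits).

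**Figure D2:**
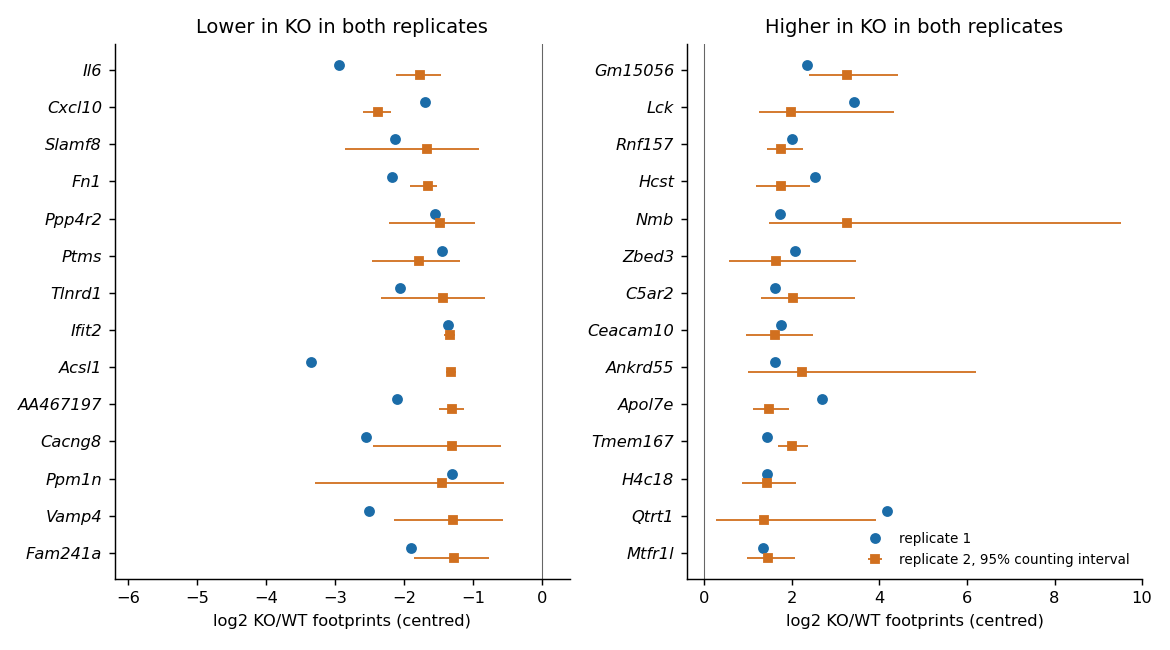
Centred log2 KO/WT of the 14 genes lower (left) and the 14 genes higher (right) in KO in both replicates, in the order of the smaller change, with replicate 1 as blue circles and replicate 2 as orange squares with the exact 95% counting interval of its reads. All 28 intervals of replicate 2 exclude 0, that of Nmb is the widest on 20 reads, and Ifit2 and Acsl1 have the narrowest.

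**Figure D3:**
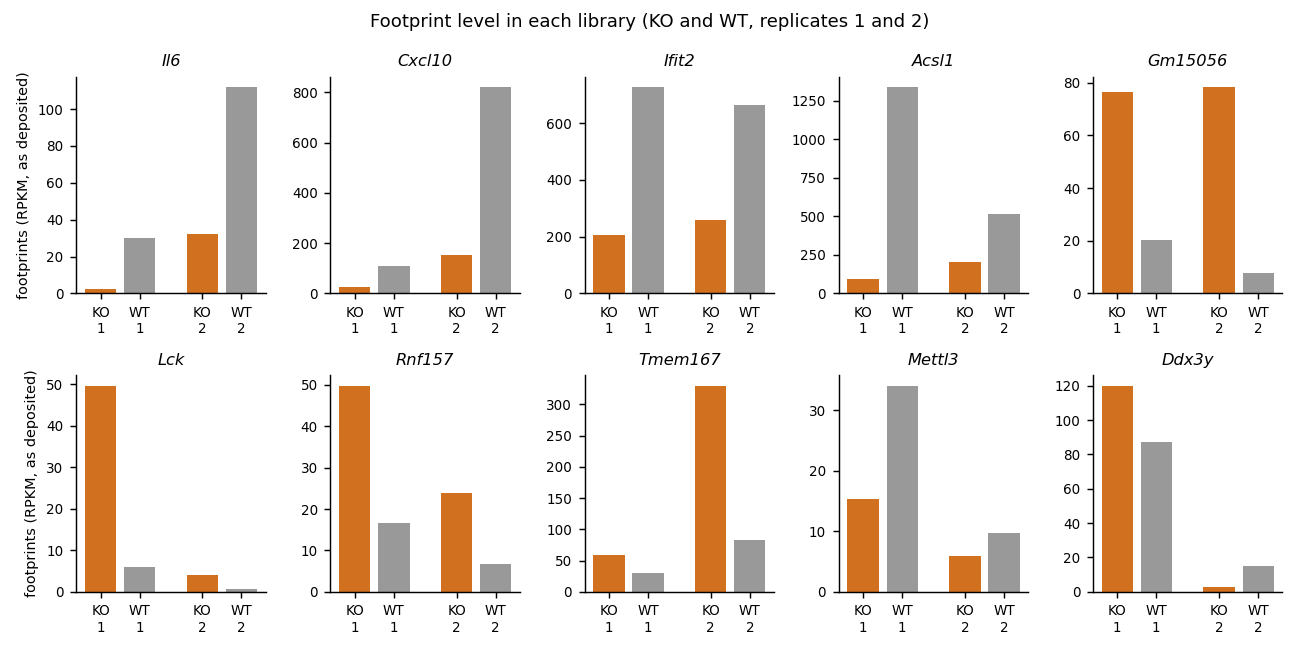
Footprint level as deposited (RPKM, y axis from 0, a scale of its own for each gene) in the KO (orange) and WT (grey) library of replicates 1 and 2, for 4 leading genes on each side, Mettl3 and the Y-linked Ddx3y. Il6, Cxcl10, Ifit2, Acsl1 and Mettl3 were lower in KO in both pairs, Gm15056, Lck, Rnf157 and Tmem167 higher in both, and Ddx3y reached 120.0 RPKM in the KO library of replicate 1 and 2.59 RPKM in that of replicate 2.

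Deeply covered genes show how often the replicates opposed each other. The genes of this paragraph were picked after their values were seen, as those with at least 1000 reads in replicate 2 and a change of at least 2-fold in both. Of these, 13 were lower in both, 1 was higher in both and 19 were opposite. The 1 gene higher in both was Mfge8, a secreted protein that bridges apoptotic cells to phagocytes, at 217 and 438 RPKM in KO, against 135 and 206 RPKM in WT (1.14 and 1.10). Among the 13 were Irf7, which amplifies type I interferon (-1.07 and -1.94), Itga5, an integrin that binds fibronectin (-1.14 and -1.58), and Arf5, a small GTPase (-1.72 and -1.27). H2-Eb1, a chain of the MHC class II molecule, was at 95.8 and 1046 RPKM in KO, against 586 and 2286 RPKM in WT (-2.15 and -1.11). Opposite changes were as large. Itgal, an integrin of leukocytes, was at 108 RPKM in KO and 11.3 RPKM in WT in replicate 1, and at 80.3 RPKM in KO and 174 RPKM in WT in replicate 2 (3.65 and -1.10). Stfa3, a cystatin of neutrophils, was at 121 RPKM in KO and 393 RPKM in WT in replicate 1, and at 2196 RPKM in KO and 392 RPKM in WT in replicate 2 (-1.24 and 2.50). C3ar1, the receptor of complement C3a (-2.50 and 1.42), Alox5ap, which serves leukotriene synthesis (-1.07 and 2.27), and Ly6a (-1.18 and 2.43) were likewise lower in KO in replicate 1 and higher in replicate 2.

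Gene lists were described by how many of their tested members lay on the same side in both replicates, to be read against 23.9% higher and 25.2% lower in both among all tested genes, whose median change was -0.01 in each replicate. Counts of intervals in replicate 2 are to be read against 20.3% above 0 and 21.6% below. No member of any list was called after centring. Of 42 lists with at least 5 tested members, 15 had a median below 0 in both replicates, 6 above 0 in both and 21 medians of opposite sign. Because KO lay 0.45 below WT in replicate 1 as deposited, a list with a median between 0 and that value in replicate 1 is below 0 without centring.

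**Figure D4:**
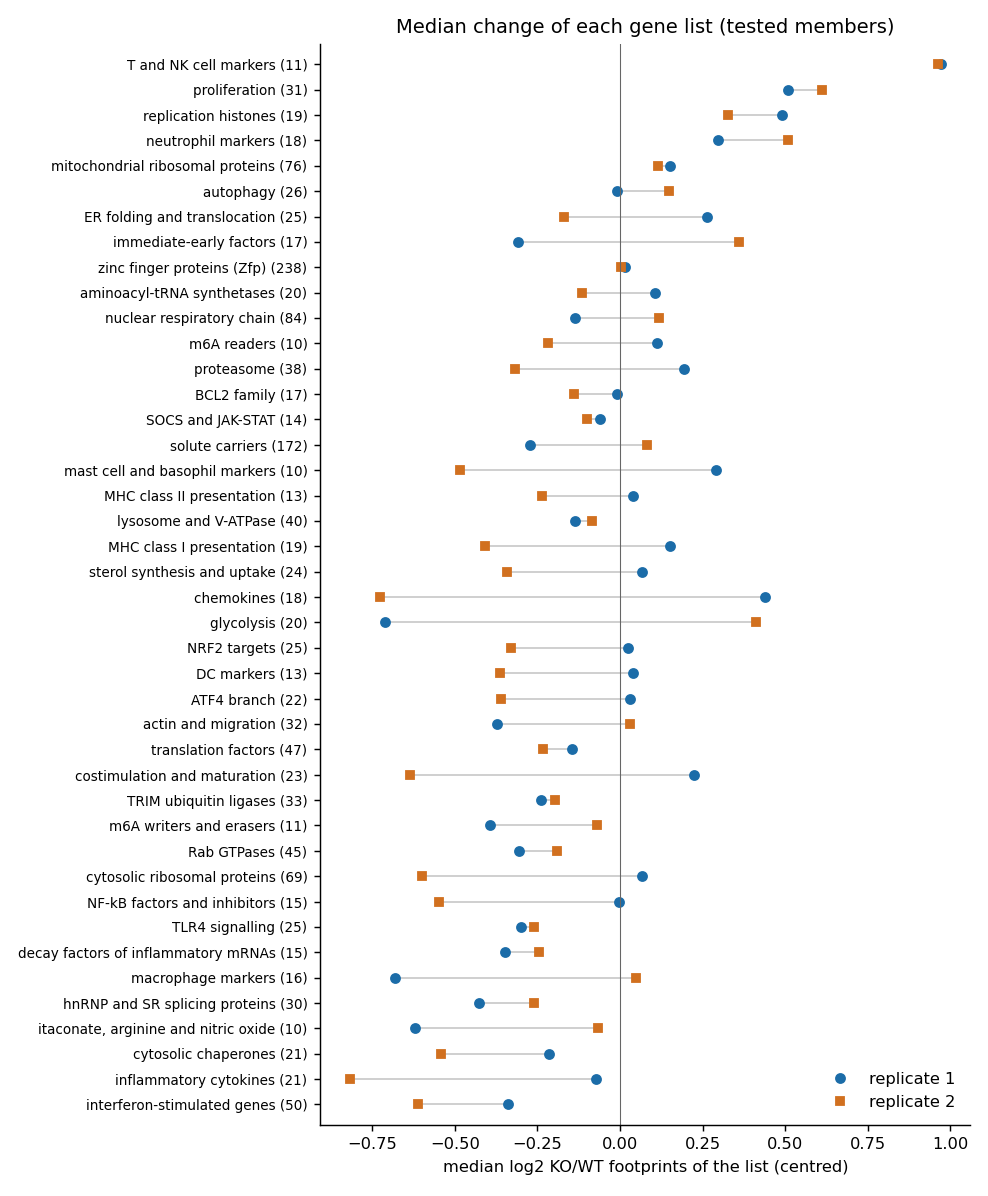
Median centred log2 KO/WT (x axis) of the tested members of 42 gene lists, with replicate 1 as circles and replicate 2 as squares joined by a line, and the number of tested members in brackets. Interferon-stimulated genes and cytosolic chaperones lie below 0 in both replicates, proliferation genes and T and NK cell markers above 0 in both, and chemokines and glycolysis have the longest lines across 0.

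Interferon-stimulated genes, the antiviral program, lay on the lower side in these footprints. The paper reports the opposite direction, higher interferon-stimulated genes in LPS-treated KO cells, from RNA-seq, which measures mRNA in other libraries. Of 50 tested members 28 (56.0%) were lower in both replicates and 3 (6.00%) higher, with medians of -0.34 and -0.61, and in replicate 2 the counting interval lay below 0 for 38 members and above 0 for 5. Isg20, an exonuclease, was at 16.4 and 85.5 RPKM in KO, against 88.2 and 194 RPKM in WT (-1.94 and -1.16). Cmpk2, a mitochondrial nucleotide kinase, was at 61.1 and 76.7 RPKM in KO, against 232 and 169 RPKM in WT (-1.46 and -1.12). The same sign in both replicates was a condition for naming both genes, as for Ifit2, and is no result. Irf9, a subunit of the factor that switches these genes on, stood furthest the other way at 0.17 and 0.29. Members of the list also opposed: Ifi27l2a was at 924 RPKM in KO and 2887 RPKM in WT in replicate 1 and at 2876 RPKM in KO and 601 RPKM in WT in replicate 2, chosen after its values were seen.

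Cytokines and chemokines lay below 0 in replicate 2, while in replicate 1 13 of 18 chemokines were higher in KO. Of 21 inflammatory cytokines 8 (38.1%) were lower in both and 3 (14.3%) higher, with medians of -0.07 and -0.82 and, in replicate 2, 14 intervals below 0 and 3 above. Besides Il6, Il1f9, which encodes IL-36 gamma, was at 15.5 and 61.9 RPKM in KO, against 39.4 and 137 RPKM in WT (-0.87 and -1.13). Il12a, a subunit of IL-12, was at 5.13 and 1.76 RPKM in KO, against 10.9 and 11.9 RPKM in WT (-0.57 and -2.44). Lif, of the IL-6 family, lay on the other side (0.58 and 0.88). Of 18 chemokines 5 (27.8%) were lower in both and 3 (16.7%) higher, with medians of opposite sign (0.44 and -0.73, and -0.01 in replicate 1 as deposited). Besides Cxcl10, Cxcl16 (-1.20 and -0.60) and Cxcl1, which draws neutrophils (-0.19 and -1.24), were low in both, and Cxcl3 stood the other way (0.40 and 0.36). Ccl17, a chemokine of mature dendritic cells, shows the split of this list and was chosen after its values were seen. It was at 211 RPKM in KO and 83.1 RPKM in WT in replicate 1, and at 66.2 RPKM in KO and 219 RPKM in WT in replicate 2 (1.79 and -1.71).

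For TLR4 signalling and NF-kB factors the share lower in both replicates was not far above the 25.2% of all tested genes. The share higher in both was below the 23.9% of all tested genes. Of 25 tested genes of TLR4 signalling 8 (32.0%) were lower in both replicates and 2 (8.00%) higher, with medians of -0.30 and -0.26. Myd88, the adaptor of most Toll-like receptors, was at 8.04 and 57.4 RPKM in KO, against 21.8 and 83.6 RPKM in WT (-0.93 and -0.52, interval -0.76 to -0.30). Map2k3, a kinase above p38, was at -1.24 and -0.58, and Irak4, a kinase that binds Myd88, stood the other way at 1.14 and 0.15. Tlr4 itself, named outside the rule, had opposite signs (-0.64 and 0.35). Of 15 NF-kB factors and inhibitors 5 (33.3%) were lower and 1 (6.67%) higher in both, with medians of 0.00 and -0.55. In replicate 1 alone 7 were higher and 8 lower. Nfkb2, which encodes the p100 precursor of p52, was at -1.40 and -0.59, Tnfaip3, the inhibitor A20, at -0.77 and -0.56, and Tnip3 at -0.44 and -0.55, while Bcl3 stood at 1.18 and 0.28. Of 15 factors that act on the decay of inflammatory mRNAs 6 (40.0%) were lower and 0 higher in both (medians -0.35 and -0.25), among them Khsrp (-1.45 and -0.38), Zc3h12c (-0.35 and -0.67) and Cnot1, the scaffold of the deadenylase complex (-0.78 and -0.25). Socs1, which restrains cytokine receptors and TLR4, was at 7.27 and 14.9 RPKM in KO, against 23.2 and 26.3 RPKM in WT (-1.15 and -0.79).

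Costimulation and antigen presentation differed between replicates. Of 23 costimulation and maturation genes 8 (34.8%) were lower and 3 higher in both, with medians of 0.23 (-0.23 as deposited) and -0.64. Icosl, the ligand of the T cell receptor ICOS, was at 8.45 and 25.1 RPKM in KO, against 24.8 and 54.0 RPKM in WT (-1.05 and -1.07). Cd200 was at -0.68 and -0.64, and Pdcd1lg2, which encodes PD-L2, stood the other way at 2.03 and 0.30. MHC class I genes had medians of 0.15 (-0.30 as deposited) and -0.41, with 6 of 19 lower and 3 higher in both. Tapbp, tapasin, was at -2.05 and -0.27, Nlrc5, the activator of these genes, at -0.59 and -0.36, and Psme1, of the proteasome cap, at -0.14 and -0.63, while H2-D1 was at 1.17 and 1.13. Class I genes share sequence, and H2-D1 was at 1489 RPKM in KO and 904 RPKM in WT in replicate 1 but at 43.5 RPKM in KO and 19.8 RPKM in WT in replicate 2. Among 13 class II genes 4 were lower and 1 higher in both, H2-DMa (-1.31 and -0.21) beside H2-Eb1 and H2-Ab1 on the lower side and Lgmn, a lysosomal protease, on the higher (0.39 and 0.15).

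Chaperones and translation factors had medians below 0 in both replicates. Of 21 cytosolic chaperones 13 (61.9%) were lower in both replicates and 1 (4.76%) higher, with medians of -0.22 and -0.54, and in replicate 2 16 intervals lay below 0 and 1 above. Stip1, which links Hsp70 and Hsp90, was at 184 and 86.7 RPKM in KO, against 465 and 151 RPKM in WT (-0.89 and -0.78). Hspa1b, an inducible Hsp70, was at -1.02 and -0.94 on 6 and 15 reads, and the chaperonin subunit Cct6a at -3.16 and -0.59. Cct7, another chaperonin subunit, was the 1 member higher in both (0.18 and 0.41). Of 47 translation factors 20 (42.6%) were lower and 7 (14.9%) higher in both (medians -0.14 and -0.23). Eif5, which acts at start codon selection, was at 15.5 and 21.6 RPKM in KO, against 194 and 53.7 RPKM in WT (-3.15 and -1.28), and was called as deposited (adjusted p = 0.0266). Pabpc1, the poly(A)-binding protein, was at 62.6 and 44.1 RPKM in KO, against 186 and 120 RPKM in WT (-1.11 and -1.42). Eif4ebp2, a repressor of initiation, was at -0.87 and -0.73, and Eif1 stood the other way on 5 and 3 reads. Of 69 cytosolic ribosomal proteins 29 (42.0%) were lower and 3 (4.35%) higher in both, with medians of 0.07 (-0.39 as deposited) and -0.60, and these short genes with many pseudogene copies are uncertain where reads could be split. In replicate 1, 36 of the 69 were higher and 33 lower. Aminoacyl-tRNA synthetases, which charge tRNAs, had medians of 0.11 (-0.35 as deposited) and -0.12, with 2 of 20 lower and 2 higher in both.

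Proteins of splicing and stress pathways followed in part. Of 30 hnRNP and SR proteins 11 (36.7%) were lower and 4 (13.3%) higher in both (medians -0.43 and -0.26), with Hnrnpdl at -4.91 and -1.10 (called as deposited, adjusted p = 0.000286, with a fitted -3.005 that was -1.67 without KO replicate 1), Hnrnpa0 at -2.45 and -0.66 and Hnrnpa3 at -1.58 and -1.11 on 4 and 11 reads, while Hnrnpr was at 2.75 and 0.52. Of 22 genes of the ATF4 branch 9 (40.9%) were lower and 3 (13.6%) higher in both, with medians of 0.03 and -0.36, the first of which is -0.42 as deposited, -0.22 with a filter at 5 RPKM and -0.06 over genes with at least 100 reads. In replicate 1 alone 11 of these were higher and 11 lower, while in replicate 2 there were 5 higher and 17 lower. Atf4 itself, the transcription factor of the integrated stress response, was at 25.7 and 20.8 RPKM in KO, against 59.0 and 39.1 RPKM in WT (-0.73 and -0.88), and Nupr1 was at -0.75 and -1.18 and Atf5 at -1.08 and -0.52. Ddit4, an inhibitor of mTORC1, stood the other way at 0.45 and 1.15. Of the Rab GTPases, which steer vesicles, 18 of 45 (40.0%) were lower and 8 (17.8%) higher in both, with Rab33b (-1.16 and -0.77), Rab22a (-0.67 and -0.75) and Rab20 (-1.19 and -0.57) on the lower side and Rab3a (1.99 and 0.56) on the higher. Genes of itaconate, arginine and nitric oxide metabolism were lower in both for 6 of 10 (60.0%), with Ass1 (-0.74 and -0.67), Acod1, which makes itaconate (-1.28 and -0.39), and Gch1 (-0.12 and -0.18), and Arg2 at 1.37 and 0.50.

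Proliferation genes lay on the higher side. Of 31 tested members 18 (58.1%) were higher in both replicates and 0 lower, with medians of 0.51 (0.06 as deposited) and 0.61, and 18 intervals of replicate 2 lay above 0 and 1 below. Cdk1, the kinase of mitosis, was at 41.8 and 83.4 RPKM in KO, against 27.0 and 29.3 RPKM in WT (1.07 and 1.51, interval 1.23 to 1.83). Birc5, survivin, was at 81.2 and 24.5 RPKM in KO, against 9.34 and 10.8 RPKM in WT (3.51 and 1.16). Ccna2, cyclin A2, was at 17.0 and 8.83 RPKM in KO, against 4.87 and 4.08 RPKM in WT (2.16 and 1.04). These 3 genes were named for being higher in both replicates, so that their replicates had the same sign is no result. Of 19 replication histone genes, which are expressed in S phase, 12 (63.2%) were higher and 0 lower in both (medians 0.49 and 0.33, and 0.04 in replicate 1 as deposited). Besides H4c18, H2ac13 was at 1.09 and 1.02 on 12 and 5 reads and H2bc21 at 0.72 and 1.15 on 6 and 2 reads, and near-identical copies and few reads limit this list.

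**Figure D5:**
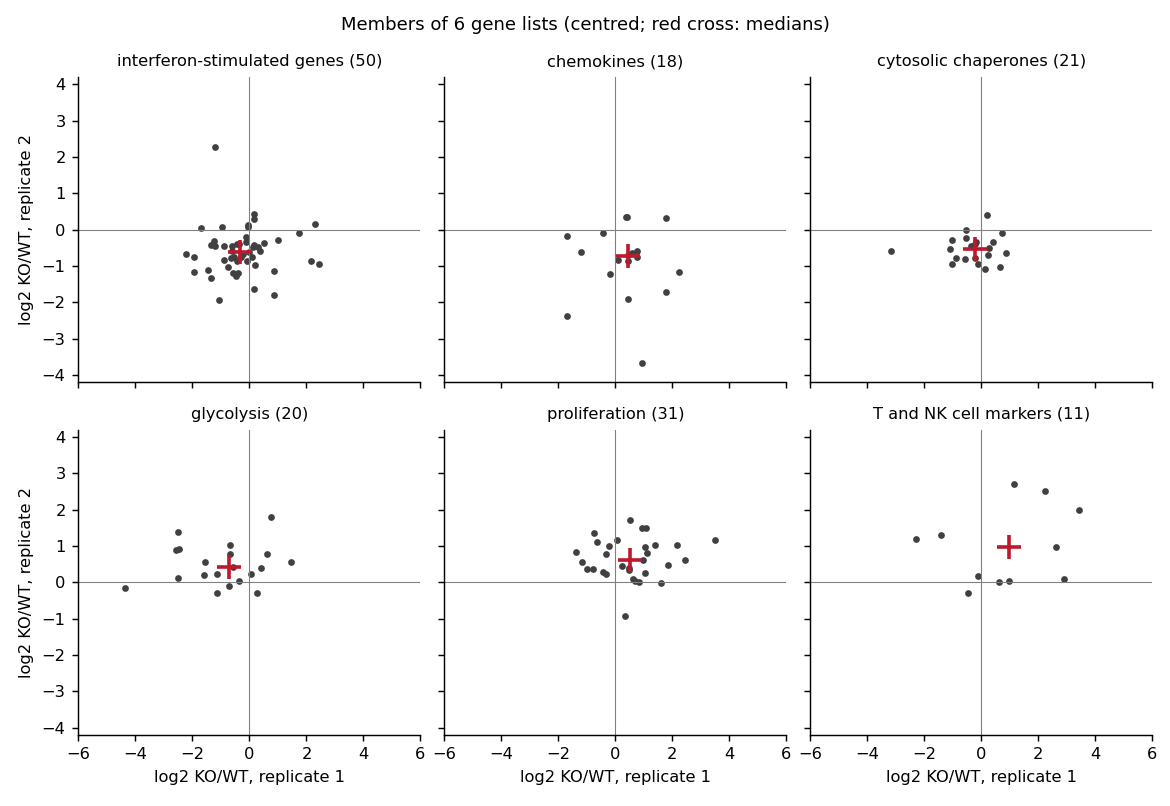
Centred log2 KO/WT in replicate 1 (x axis) and replicate 2 (y axis) of each tested member of 6 gene lists, with the medians as a red cross. Interferon-stimulated genes and chaperones gather in the lower left and proliferation genes in the upper right, while chemokines lie mostly in the lower right and glycolysis genes in the upper left.

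By count of members, markers of T and NK cells and of neutrophils also lay on the higher side. T and NK cell markers were higher in both replicates for 7 of 11 tested members (63.6%) and lower for 1 (9.09%), with medians of 0.97 and 0.96, and they summed over 15 of 20 markers to 139 and 99.4 RPKM in KO and to 133 and 46.8 RPKM in WT. Ifng, interferon gamma, was at 9.94 and 4.89 RPKM in KO, against 2.54 and 0.445 RPKM in WT, on 12 and 1 reads in replicate 2. Because the filter takes the mean of KO and WT, Ifng and Lck (0.677 RPKM in WT) passed it in replicate 2 only through KO. The share of tested members that were higher in KO is therefore tilted by the filter. Nkg7, of cytotoxic granules, was at 12.3 and 27.2 RPKM in KO, against 7.34 and 3.76 RPKM in WT (1.16 and 2.71), and Klrd1, an NK cell receptor, was the 1 member lower in both (-0.48 and -0.30). The T cell receptor subunit Cd3e, named after its values were seen, was at 3.85 and 5.35 RPKM in KO, against 5.89 and 4.74 RPKM in WT, so its libraries overlapped. Neutrophil markers were higher in both for 9 of 18 and lower for 1 (5.56%), with medians of 0.30 (-0.16 as deposited) and 0.51. Their summed level as deposited was lower in KO in replicate 1 (14590 against 20488 RPKM in WT) and higher in replicate 2 (35044 against 27912 RPKM). Fcnb, a ficolin of granulocyte precursors, was at 18.4 and 45.7 RPKM in KO, against 2.14 and 20.2 RPKM in WT (3.29 and 1.17), Retnlg was at 0.90 and 2.85 and Camp, cathelicidin, at 1.74 and 0.55, while Elane, neutrophil elastase, lay at -0.27 and -0.89. The part of these markers in the changes of the proliferation genes was not tested.

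Markers of macrophages and of basophils split by replicate or by gene. Macrophage markers had medians of -0.68 and 0.05, the value of replicate 2 lying at -0.01 after quantile normalization and with a filter at 5 RPKM and at -0.06 over genes with at least 100 reads, and 7 of 16 were lower and 4 higher in both. Apoe, apolipoprotein E, was at 160 and 111 RPKM in KO, against 601 and 228 RPKM in WT (-1.45 and -1.02), and the receptors Fcgr1 (-1.35 and -0.96) and Msr1 (-1.86 and -0.81) were also low in both. Gpnmb, a glycoprotein of macrophages, stood the other way at 0.63 and 0.99. Of 13 tested dendritic cell markers 5 (38.5%) were lower and 3 (23.1%) higher in both, with medians of 0.04 (-0.41 as deposited) and -0.36. Itgax, which encodes CD11c, was at 48.8 and 33.2 RPKM in KO, against 228 and 58.9 RPKM in WT (-1.76 and -0.81), and Fscn1 at -1.38 and -0.11, while Irf4 was at 0.56 and 0.53. CD11c is also the protein on which the cells were selected and its promoter drives the Cre. Among mast cell and basophil markers Kit was at 0.72 and 1.81 and Prss34, a basophil protease, at -2.13 and -1.27, with 2 of 10 members higher and 2 lower in both.

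Energy metabolism showed opposite medians. Of 20 glycolysis genes 6 were higher in replicate 1 and 16 in replicate 2, with medians of -0.71 and 0.41, and 5 of the 20 were higher and 3 (15.0%) lower in both. Slc2a3, the glucose transporter GLUT3, was at 39.8 and 72.8 RPKM in KO, against 32.3 and 20.7 RPKM in WT (0.75 and 1.80), followed by Pdk1 (0.60 and 0.79) and Pfkp (1.47 and 0.55), and Hk2, a hexokinase, was at -1.15 and -0.30. Ldha, lactate dehydrogenase, chosen after its values were seen, was at 314 RPKM in KO and 2557 RPKM in WT in replicate 1 and at 227 RPKM in KO and 123 RPKM in WT in replicate 2. Mitochondrial ribosomal proteins were higher in both for 27 of 76 (35.5%) and lower for 18 (23.7%), with medians of 0.15 (-0.30 as deposited) and 0.11 and with Mrpl45 (1.45 and 0.97), Mrpl33 (0.82 and 0.92) and Mrpl34 (1.90 and 0.75) furthest up and Mrpl57 down (-0.92 and -1.16). Among the largest lists were zinc finger proteins, 57 of 238 higher (23.9%) and 55 lower (23.1%), nuclear respiratory chain genes, 20 of 84 higher (23.8%) and 16 lower (19.0%), and solute carriers, 35 of 172 higher (20.3%) and 42 lower (24.4%).

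Members of the m6A machinery lay on both sides of 0. Of 11 tested writers and erasers, Mettl3 among them, 5 were lower and 2 higher in both, with Rbm15b at -0.79 and -0.38 and Fto, an eraser, at -0.70 and -0.22. Wtap, which recruits the writer complex, was at 116 and 45.8 RPKM in KO, against 40.5 and 26.8 RPKM in WT (1.97 and 0.77, interval 0.50 to 1.08). Wtap was named as the member furthest the other way in both replicates, so that its replicates had the same sign is no result. Of 10 readers 3 were lower and 1 higher in both, and Ythdf1, which promotes translation of marked mRNAs, was near 0 (0.08 and -0.05, fitted 0.02 ± 0.51).

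Genes on which the study centred were followed in every library. Tirap, an adaptor of TLR4, was at 4.74 and 1.01 RPKM in KO, against 12.6 and 1.66 RPKM in WT. Both KO libraries were below WT, but replicate 2 held 4 and 6 reads, and its change of -0.50 had an interval from -2.97 to 1.38 (fitted -0.68 ± 0.56). Cd80, a costimulatory ligand, was at 138 and 92.1 RPKM in KO, against 206 and 119 RPKM in WT, a change of -0.12 and -0.35 (interval -0.54 to -0.17, fitted -0.24 ± 0.48). Cd40, the receptor of CD40 ligand, was at 155 RPKM in KO and 181.9 RPKM in WT in replicate 1 (0.23), and in replicate 2, where its value stands on a length of 1 base, it had 624 reads in KO and 1275 in WT (-1.14, interval -1.284 to -1.004). The 2 replicates thus had opposite signs for Cd40 after centring, with a fitted -0.46 ± 0.54. The counting interval of replicate 2 excluded 0 for Cd40 and Cd80 and included it for Tirap.

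Among the cytokine and class II genes, Il12b was at 250 and 167 RPKM in KO, against 414 and 297 RPKM in WT (-0.27 and -0.82, fitted -0.54 ± 0.48). Tnf was at 28.1 RPKM in KO and 26.0 RPKM in WT in replicate 1 (0.56) and at 29.3 RPKM in KO and 132 RPKM in WT in replicate 2 (-2.14). H2-Eb2 was at 33.4 RPKM in KO and 20.5 RPKM in WT in replicate 1 (1.15) and at 22.2 RPKM in KO and 45.6 RPKM in WT in replicate 2 (-1.01). Tnf and H2-Eb2 were thus near or above WT in replicate 1 and far below it in replicate 2. H2-Ab1 was at 280 and 387 RPKM in KO, against 488 and 1128 RPKM in WT (-0.35 and -1.53). Cd86, a costimulatory ligand, was at 0.36 and -0.65, and Itgam, which encodes CD11b, at -0.30 and 0.46. No gene of this group passed (limma, smallest adjusted p 0.995).

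Sequence features of the genes had little relation to the changes. Over 9940 tested genes with an annotated coding sequence (98.4%), Spearman's correlation of the change with coding length was 0.01 in replicate 1 and 0.00 in replicate 2. With the GC content of the coding sequence it was -0.08 in replicate 1 and 0.07 in replicate 2, of opposite sign, and the fifth of genes with the highest GC content had medians of -0.13 and 0.02. GGACT, the DNA form of a core sequence at which m6A is often placed, was searched on the mRNA strand of the coding sequence. It was in the coding sequence of 7650 genes, with median changes of -0.03 and -0.01, and absent from that of 2290, with 0.02 and -0.02. A match of these letters is no modified site. The number of GGACT matches in the 3′ UTR correlated with the change at -0.02 in replicate 1 and -0.03 in replicate 2. With the length of the 3′ UTR the correlations were -0.03 and -0.05, and with the footprint level of the gene in replicate 2 -0.08 and -0.04. These are descriptions across genes, which are not independent and share libraries, depth and base composition.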

How the data were processed

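Footprint levels were deposited as RPKM, with a table for each replicate. Tools that the submitters' processing notes list are TopHat2 2.0.14, Cuffnorm and bcl2fastq, with mm10 as the build. The annotation used was not given in the sources used here. Columns of the table of replicate 2 repeat the names of the other table, so they were taken as the group they name. The 4 input columns were not used, nor were the columns of log2 translation efficiency, which hold the authors' own comparison. Rows with a date in place of a symbol were left out (27 and 19), and older symbols were updated through the RefSeq annotation.

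Replicate 2 listed only genes above 0. Its RPKM values were whole reads over the coding length without the stop codon (11362 genes) or over 1 base (241 genes), within 0.01 read, for 98.8% of genes. Of 4227 genes with a single annotated length, 98.5% came out whole on their own length and 3.45% on that of another gene. The 241 genes on 1 base have too high a level in replicate 2, while their KO/WT ratio is not affected. No read steps were found in replicate 1, so no count test was run. Intervals are exact binomial (95%, scipy 1.17.1), on reads without the pseudocount, and cover counting error only, since PCR copies of a molecule carry no identifier here.

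Tests used limma 3.58.1 (R 4.3.3) on log2(RPKM + 0.5), a scale that understates changes of low genes. Each library was centred on its median over 11743 genes, and the replicate, which is also the table, entered as a block, with an intensity trend, two-sided p-values and Benjamini-Hochberg adjustment over 10098 genes. A gene then has 1 residual degree of freedom. The script was tested on simulated data with equal noise in every library. The spread of the measured changes differed between the replicates, so that test bears on the script and not on these data. Named genes were the 14 furthest from 0 the same way in both replicates in each direction, with at least 20 reads in replicate 2, the genes of the study, in each list described the 3 members furthest along its majority and the 1 furthest the other way, and the 6 highest genes. Other genes named, among them Tlr4, Ccr7, Cd74, Lars2 and the Y-linked genes, fall outside this rule and were chosen after values were seen. The members and lists were chosen with earlier results of these data known. Alternatives were no centring, quantile normalization, other pseudocounts and filters, no replicate block, no trend, leaving out 1-base genes, symbols as written and leaving out each library.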

Additional observations from a re-analysis of the deposited data

How the results depend on the processing

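As deposited, without centring, 11 genes were called higher and 19 lower, against 0 and 0 after centring. The genes 2-fold higher in both replicates were then 43 and the 2-fold lower 120, against 85 and 67, and the 2-fold higher were 36 with a filter at 5 RPKM. With at least 100 reads in replicate 2, a setting chosen after seeing the data, 28 were higher and 35 lower. The other settings left 0 genes called. Without the replicate block 0 genes were called higher and 0 lower, with 25 at an unadjusted p under 0.05 against 431 with it. Leaving out 1 library could only be fitted without the block, where the lone sample is assumed to vary like the other group, and 0 to 0 genes were called higher and 0 to 0 lower.

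Of 43 genes whose fitted value was recomputed, 11 took the other sign under at least 1 setting, and leaving out a library moved 31 by over 1.5 times, 18 of the 28 leading genes among them. As deposited H2-Eb2 was at -0.16, Ythdf1 at -0.22 and Itgam at -0.15, and Itgam was at -0.14 after quantile normalization. When 1 library was left out, which sets a level of 1 table against that of the other, fitted values ran from -3.43 to 0.39 for Ppp4r2, from -0.22 to 3.09 for H4c18 and from -0.30 to 5.84 for Qtrt1. They ran from -1.55 to 0.19 for Tirap, from -0.49 to 0.19 for Cd86, from -2.37 to 0.80 for Tnf and from -0.93 to 1.06 for H2-Eb2. For H2-Ab1 they ran from -1.97 to 0.092, for Ythdf1 from -0.28 to 0.31 and for Itgam from -0.22 to 0.38. For Cd40 they ran from -6.13 to 5.22, because its level in replicate 2 stands on a length of 1 base. That range does not measure how stable the KO/WT ratio of Cd40 is. Of 190 other genes, whose changes were recomputed for each replicate, 10 took the other sign in replicate 1, 9 of them as deposited, among them Irf9 (-0.28), Cct7 (-0.27), Lyz2 (-0.17), S100a9 (-0.13), Lgmn (-0.061) and Cxcl3 (-0.048). The medians of 22 of 42 lists took the other sign in at least 1 replicate under at least 1 alternative. Beyond the length of 1 base for Cd40, causes of the changed signs were not tested. Depth limits genes of few reads in replicate 2, such as Tirap, and the precision of replicate 1 is unknown.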
